A study of Mus musculus with 47 samples.

Results

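The SR splicing factors were followed here through the 3′ UTR intervals of 10 mouse genes, Srsf1, Srsf2, Srsf3, Srsf4, Srsf5, Srsf6, Srsf7, Srsf9, Srsf10 and Srsf11. Members were all rows whose RefSeq mRNA name maps to one of these symbols, and different intervals of a gene were kept apart. Each of the 47 libraries lists 21 such rows among 39419, and they hold 13 different intervals of 30432 in all. A further 9 rows carry names of non-coding transcripts of the same genes and were not members. All 13 intervals passed the filter on low reads, and 12 passed the minimum of 1000 covered T positions per library that the labeling measures needed. The long and the short interval of Srsf1 are nested and differed by 111 reads in 3 libraries, so that Srsf1 was counted once, which leaves 12 intervals for reads and 11 for labeling.

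SR proteins bind exonic enhancers through RNA recognition motifs and recruit the spliceosome through an arginine/serine-rich (RS) domain. Kinases of the SRPK family phosphorylate that domain in the cytoplasm before nuclear import, and kinases of the CLK family phosphorylate it further in the nucleus, which releases SR proteins from nuclear speckles. Many SR genes carry a poison exon, whose inclusion sends their own transcript to nonsense-mediated decay, and several members also act in mRNA export or translation. Neuronal differentiation is known for wide changes in alternative splicing.

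P19 cells, a mouse embryonal carcinoma line, were measured undifferentiated (D0) and after up to 6 days of differentiation with 500 nM retinoic acid (D6), which yields neurons. In SLAM-seq, 4-thiouridine (4sU) enters new RNA, alkylation makes those positions read as C, and the share of covered T positions read as C is the conversion rate. Labeling used 20 µM 4sU at D0 and 500 µM at D6, so that dose and state cannot be told apart in any rate. In the anabolic assay 4sU was added and its uptake followed, and the T0 libraries of that assay received none. In the catabolic assay cells were labeled for 15 h and then chased in 10 mM UTP. The methods give a shorter labeling time where they describe the normalization, and "15 h" stands here for time 0 of that assay. Every combination of state, assay and time point (T0, T1, T3 and T9) had 3 libraries, except for 2 at D6 catabolic T3. The labels put T1 and T3 at 1 and 3 h, whereas the methods give 3 and 6 h, and tests of labeling therefore used 0 and 9 h alone. The replicates are described as biological, but nothing says whether they came from separate differentiations. All libraries come from this single line, and a change in the share of a cell type cannot be told apart from a change in RNA per cell.

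The intervals are given on mm10, counted from 1. Srsf1 lies at chr11:88049270-88053757 on the plus strand, and its shorter form starts at 88049607. The main interval of Srsf2 is chr11:116849897-116850961 on the minus strand, and a second Srsf2 interval of 7 bases, chr11:116852021-116852027, belongs to the same transcript and holds a single T. Srsf3 (chr17:29041412-29043372, plus), Srsf4 (chr4:131901073-131901725, plus), Srsf5 (chr12:80949979-80950507, plus), Srsf6 (chr2:162934758-162937121, plus), Srsf7 (chr17:80200080-80201547, minus), Srsf9 (chr5:115332720-115333080, plus) and Srsf11 (chr3:158010493-158012008, minus) have 1 interval each. Srsf10 has an upstream interval, chr4:135864027-135865818, and a downstream interval, chr4:135867187-135869908, both on the plus strand, which share no base. In GENCODE, Mettl23 on the opposite strand covers all of both Srsf2 intervals, and the transcript Gm12992 on the opposite strand covers all 653 bases of Srsf4. Whether reads were counted by strand is not given in the sources used here, and reads of such partners could not be separated.

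QuantSeq reads start near the poly(A) tail, and annotated ends of these 3′ UTRs are shown for that reason. Reads were counted over whole intervals, and where they lie within an interval was not examined. GENCODE also has an Srsf2 end at 116850108, within the main interval. The 4 ends shown are those of Srsf2 and Srsf9, whose reads differed between the states, and of the separate 3′ UTRs of Srsf10. Each is 30 bases of GENCODE transcript sequence on GRCm38, 5′ to 3′ on the transcript's strand, and capitals mark a poly(A) signal hexamer.
Srsf2 (chr11:116849919-116849948): ttctgtagtttgATTAAAgtgttttcttgg
Srsf9 (chr5:115333051-115333080): gttcagaaatatattttaaatgtttagtaa
Srsf10 upstream (chr4:135865782-135865811): caaagatgctatAATAAAaacaaaatgaag
Srsf10 downstream (chr4:135869864-135869893): gttggagagtaaAATAAActggtctaggag
Of the hexamers searched, AATAAA and ATTAAA, on the transcript strand in the last 50 bases, Srsf9 held neither, Srsf2 held ATTAAA, and both ends of Srsf10 held AATAAA. Over 48042 protein-coding transcripts, 49.3% held AATAAA, 14.4% held ATTAAA and 60.9% held either. For Srsf9 the last 30 bases are shown in place of a hexamer.

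Reads on 3′ UTRs numbered 3447888 to 11677046 per library at D0 and 1489528 to 7930149 at D6, and no 2 libraries were identical. Pou5f1, Utf1 and Lin28a, markers of undifferentiated cells, fell at D6, and all 6 neuronal markers rose (edgeR's quasi-likelihood test, Benjamini-Hochberg adjustment at 0.05). The summed level of 4 detected markers of undifferentiated cells was 804 to 1496 CPM (TMM-scaled, read counts relative to library size) at D0 and 4.58 to 87.0 at D6, and that of 6 neuronal markers was 485 to 678 and 7181 to 11860. Zfp42 and Dppa5a had no read. Of 4 glial markers only Mbp was tested and was not called, Gfap and Olig1 had 71 and 22 reads over all libraries, and Aqp4 had 0. Of 4 mesoderm and endoderm markers 2 were tested, and Acta2 fell. Some libraries stood apart. D0 library 56 and D6 library 38, both without 4sU, and D0 library 26, labeled for 15 h, had 22.1, 22.4 and 21.2 covered T positions per read, the fewest in their groups, and were left out together in an alternative. Libraries 18 and 16 (D6, 9 h of chase) and 72 (D0, 9 h of uptake) were also low, at 21.6, 22.3 and 22.04, and were left out one at a time. Libraries 14, 40 and 53, all at D6, detected 47.1%, 58.7% and 56.8% of the intervals tested, against up to 86.5% elsewhere. D6 libraries 45, 15 and 12 came next at 59.75%, 60.2% and 60.8%, so that the cut after 3 libraries was not at a gap. Where leaving out libraries 14, 40 and 53, or those named before them, changed a call, the value without them is given.

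To determine how the SR transcripts differ between the states, reads without 4sU were compared first. Srsf9 and Srsf2 were lower at D6, and no member was called higher. With Srsf1 counted once, 2 of 12 member intervals were called lower and 0 higher, against 3.31% lower and 4.75% higher of 16322 intervals tested (edgeR, adjusted p under 0.05). The median difference of the members was -0.28 on the log2 scale, against 0 over all intervals, and 8 of the 12 estimates were below 0. These 8 include the short upstream interval of Srsf2, which was nearly empty. Its estimate is the lowest of the 12 and lowers the median. Srsf2 and Srsf10 each enter with 2 intervals, and the share of all intervals below 0 is not given for comparison.

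Srsf9, which encodes an SR protein with a short RS domain, gave the clearest difference between the states. In the libraries without 4sU its level was 632, 582 and 723 CPM at D0 and 249.6, 274 and 271 CPM at D6. Every D0 library was above every D6 library. The log2 difference was -1.29 (SE 0.35), a 2.44-fold lower level at D6, with an adjusted p of 0.0104 in edgeR. In the libraries labeled for 15 h the levels were 551, 501 and 699.5 CPM at D0 and 175, 154 and 199 CPM at D6. That difference was -1.73 (SE 0.36), or 3.32-fold, with an adjusted p of 0.000285 in edgeR, and Srsf9 was the 1 member of 12 called lower there, against 4.17% of all intervals. Over all 24 D0 libraries Srsf9 ranged from 501 to 747 CPM (median 670.2), and over all 23 D6 libraries from 24.4 to 358 CPM (median 198), so that the states did not overlap in any assay or time point. The lowest D6 value came from library 53, which holds 35 Srsf9 reads. The call without 4sU was lost without D6 library 37 (log2 difference -1.24, adjusted p 0.0521 in edgeR) and without libraries 26, 38 and 56 (-1.36, adjusted p 0.0555 in edgeR), while the difference stayed close to its size.

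Srsf2, a canonical SR protein whose gene is controlled through its own 3′ UTR splicing and nonsense-mediated decay, was the other member called lower at D6. Its main interval was at 632, 855 and 507 CPM at D0 and at 382, 294 and 440.5 CPM at D6 without 4sU. The groups did not overlap, but the lowest D0 library and the highest D6 library were close. The log2 difference was -0.84 (SE 0.24), 1.79-fold lower at D6, with an adjusted p of 0.0161 in edgeR. This call depended on the settings and on single libraries. It was lost with no filter on low counts (adjusted p 0.0632 in edgeR) and with only the compared groups fitted (0.0892). Leaving out D6 library 37, D6 library 38 or D0 library 56 gave adjusted p-values of 0.0502, 0.127 and 0.172 in edgeR, and leaving out libraries 26, 38 and 56 together gave a log2 difference of -0.45 and an adjusted p of 0.440 in edgeR. After 15 h of 4sU the difference was -0.64 (SE 0.24) with an adjusted p of 0.0860 in edgeR. It was called (adjusted p 0.0293, edgeR) once the 3 libraries that detected the fewest intervals were left out of the fit. Over all libraries Srsf2 ranged from 507 to 1200.2 CPM at D0 (median 684) and from 293 to 828 CPM at D6 (median 444).

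The 7-base Srsf2 interval upstream was nearly empty. It held 20, 0 and 0 reads at D0 and 0 in all 3 D6 libraries without 4sU, and between 0 and 38.9 CPM over all libraries. No fold is given for it, and its difference was not called (adjusted p 0.259 in edgeR).

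**Figure D1:**
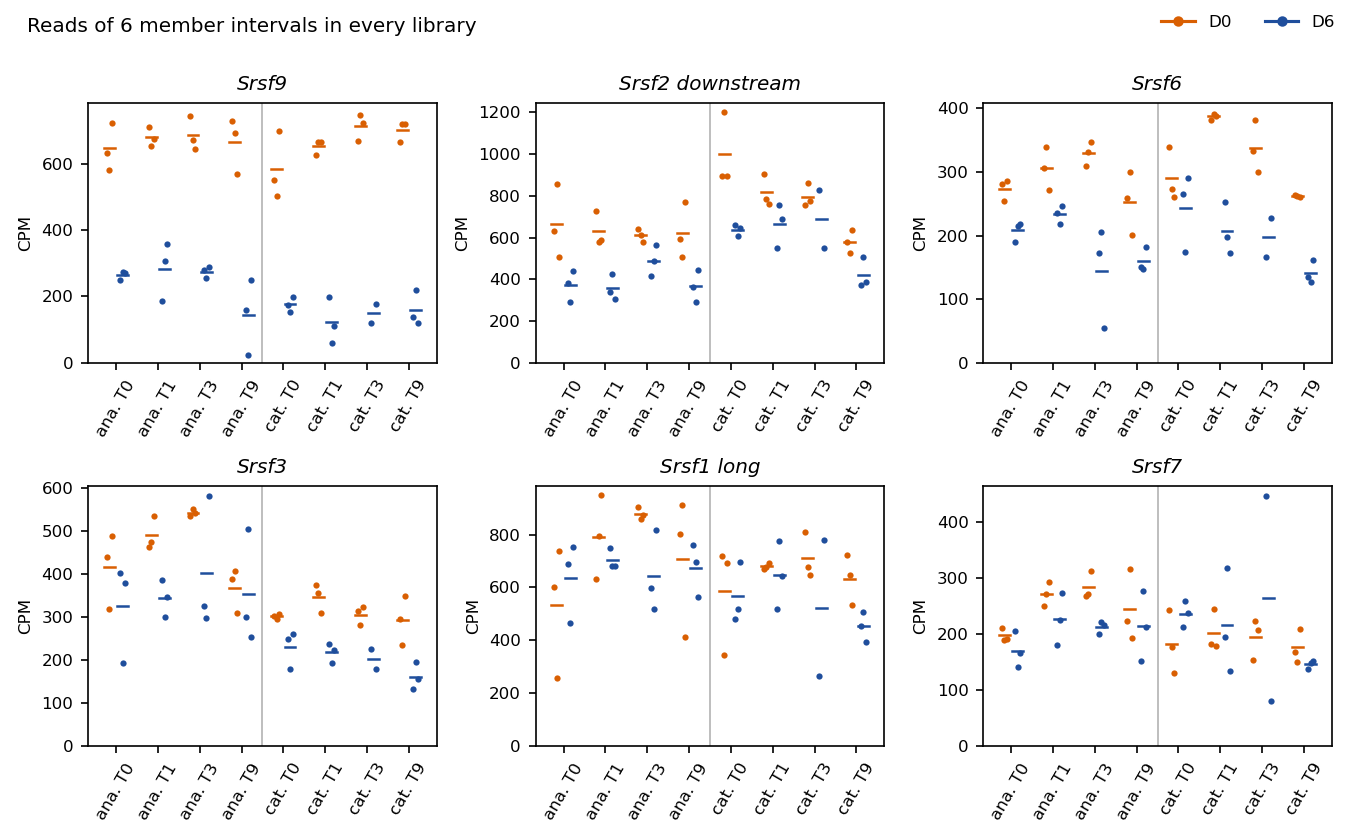
Reads of 6 member intervals in every library, in TMM-scaled CPM on a linear axis, by time point of the anabolic (ana.) and catabolic (cat.) assay, with D0 in orange, D6 in blue and a line at each group mean. All D0 points of Srsf9 (501 to 747 CPM) lie above all D6 points (24.4 to 358 CPM), whereas the states overlap for the other 5 intervals.

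Srsf1, the prototype of the family, did not follow Srsf9 and Srsf2. Its level without 4sU was 603, 258 and 739.6 CPM at D0 and 689.9, 466 and 754 CPM at D6. The low D0 value is library 56, which stands apart. The log2 difference was 0.25 (SE 0.29), with a 95% interval, taken from the SE, from -0.32 to 0.83. In the labeled libraries it was -0.05 (SE 0.29).

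Srsf3 and Srsf7, which link splicing to mRNA export through Nxf1, were both estimated below 0 and not called. Srsf3 was at 439.7, 319 and 487 CPM at D0 and at 401, 193 and 379 CPM at D6, a log2 difference of -0.36 (interval -0.94 to 0.23). Srsf7 was at 212, 189.9 and 192 CPM at D0 and at 205, 141 and 166 CPM at D6, a difference of -0.21 (interval -0.95 to 0.52). In both genes the lowest of the 6 values was D6 library 38, and the states overlapped.

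Srsf4, Srsf5 and Srsf6 encode the related proteins of the family with longer RS domains. Srsf6 was at 281, 254 and 287 CPM at D0 and at 189.9, 216 and 219 CPM at D6, so that the groups did not overlap. The log2 difference of -0.39 (interval -1.03 to 0.25) was not called, with an adjusted p of 0.555 in edgeR. Over all libraries Srsf6 overlapped, at 201 to 392 CPM at D0 and 54.7 to 291 CPM at D6. Srsf4 was at 57.95, 75.2 and 61.5 CPM at D0 and at 88.2, 36.3 and 74.0 CPM at D6, a difference of 0.03 (interval -1.11 to 1.17). Its estimate after 15 h of 4sU was 1.13 (SE 0.59, adjusted p 0.260 in edgeR), with 61.9, 36.2 and 29.2 CPM at D0 and 127, 88.4 and 62.9 CPM at D6. Srsf5 was at 47.3, 34.99 and 48.1 CPM at D0 and at 39.2, 27.5 and 71.9 CPM at D6, a difference of 0.09 (interval -1.32 to 1.501). The intervals of Srsf4 and Srsf5 extend beyond 1 log2 unit in both directions.

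Srsf11, an SR-like protein, was at 88.9, 88.7 and 74.1 CPM at D0 and at 68.2, 85.9 and 89.0 CPM at D6. Its difference was -0.05 (interval -1.24 to 1.14), and after 15 h of 4sU it was 0.81 (SE 0.61). In single D6 libraries Srsf11 ranged from 2.47 to 313 CPM, against 55.01 to 117 CPM at D0. The lowest value is 3 reads in library 14.

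**Figure D2:**
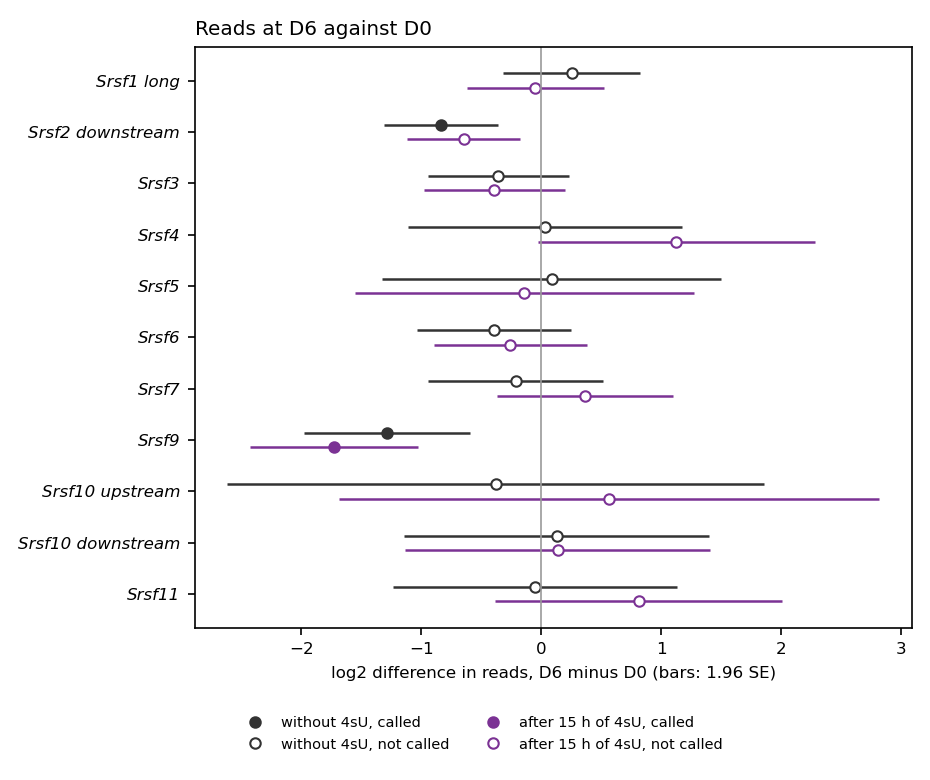
Log2 difference of reads at D6 against D0 for 11 member intervals with its 95% interval (bars, from the SE), without 4sU (black) and after 15 h of 4sU (purple), filled where called. Srsf9 lies at -1.29 and -1.73 and Srsf2 at -0.84 and -0.64, and the intervals of the other members reach 0.

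Srsf10 encodes a splicing repressor that is activated by dephosphorylation, and its separate last exons allow the use of its 3′ ends to be compared. The share of Srsf10 reads on the upstream interval was 39.4%, 1.75% and 45.8% at D0 and 37.8%, 25% and 22.5% at D6 without 4sU. The means were 28.98% ± 23.8 and 28.4% ± 8.22 (SD, n = 3 each). They differed by -0.55 percentage points (two-sided exact permutation test, p = 0.9, where 0.1 is the smallest p that 3 against 3 libraries allow). After 15 h of 4sU the shares were 20.03% ± 10.2 and 24.7% ± 8.31, a difference of 4.66 points (exact permutation p = 0.5). The low D0 value rests on 3 upstream and 168 downstream reads in library 56, and without that library the difference was -14.2 points. Without D0 library 55 or 57 it was 4.66 or 7.84 points, in the other direction. Over all libraries the share ran from 1.75% to 47.1% at D0 and from 1.25% to 97.4% at D6, with medians of 27.5% and 25.1%. Since 3 libraries a group cannot give a p under 0.1 in this test, no change in the use of the Srsf10 3′ ends could be called, whatever its size. The level of neither interval was called, with log2 differences of -0.38 (SE 1.14) upstream and 0.13 (SE 0.65) downstream.

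To assess whether labeling itself moved the SR transcripts, reads after 15 h of 4sU were compared with reads without it. These groups also belong to different assays. No member was called at D0 (0 of 12, against 0.0551% of all intervals) or at D6 (0 of 12, against 0.0184%), and at an unadjusted p under 0.05 edgeR gave 1 member in each state, which was Srsf2 both times, and 867 and 1052 of all 16322 intervals. DESeq2 called 0 members at D0 and 1, again Srsf2, at D6, against 219 and 286 of all intervals. The estimate for Srsf2 was 0.59 (SE 0.24, adjusted p 0.845 in edgeR) at D0 and 0.78 (SE 0.24, adjusted p 0.545 in edgeR) at D6. Its levels after 15 h were 897, 1200.2 and 897 CPM at D0 and 661, 607 and 648 CPM at D6. Both sets of 3 lie above the matching libraries without 4sU given above. After 9 h of chase Srsf2 was at 579, 527 and 637 CPM at D0 and at 372, 509 and 387 CPM at D6. After 9 h of uptake it was at 594, 508 and 770.5 CPM at D0 and at 366, 293 and 444 CPM at D6. Srsf3 was estimated in the other direction, by -0.46 (SE 0.30) at D0 and -0.50 (SE 0.30) at D6, and was not called.

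Before the labeling of the members is described, their conversion rate without 4sU is needed, since this share is not label. Srsf9 stood out. Its rate without 4sU was 1.17%, 1.23% and 1.04% at D0 and 1.24%, 0.902% and 1.65% at D6, on 18857 to 107177 covered T positions per library. Of all intervals above the coverage minimum, 3.54% of 9817 at D0 and 2.74% of 9523 at D6 had a rate at or above that of Srsf9, and the median rate was 0.0212% and 0.0230%. Srsf2 came next, at 0.286% and 0.333% on average, with 16.5% and 15.3% of intervals at or above it. The other members ranged from 0% to 0.204%. After 9 h of uptake at D0, the lower dose, Srsf9 was at 1.81%, 1.79% and 2.43%, against 1.04% to 1.23% without 4sU. The source of these conversions was not tested.

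After 15 h of 4sU, the overall rate over all intervals was 1.42% at D0 and 4.63% at D6. Srsf6 was at 1.71%, 1.502% and 1.81% at D0 and at 4.996%, 5.16% and 5.70% at D6, and Srsf2 at 1.64%, 1.67% and 1.87% and at 5.56%, 5.63% and 4.76%. Srsf9 was at 2.28%, 3.09% and 2.71% at D0 and at 6.55%, 2.25% and 5.75% at D6. All 3 were higher at D6 in every library except for Srsf9 in library 8, and the dose there was higher as well. The rates of Srsf10 upstream (0.261%, 0% and 2.68% at D0, on 534 to 2876 covered T positions) show how far apart the libraries were for the member with the fewest covered T positions of those above the coverage minimum. Reads carry no molecular identifiers, and the number of molecules is not known for any member.

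**Figure D3:**
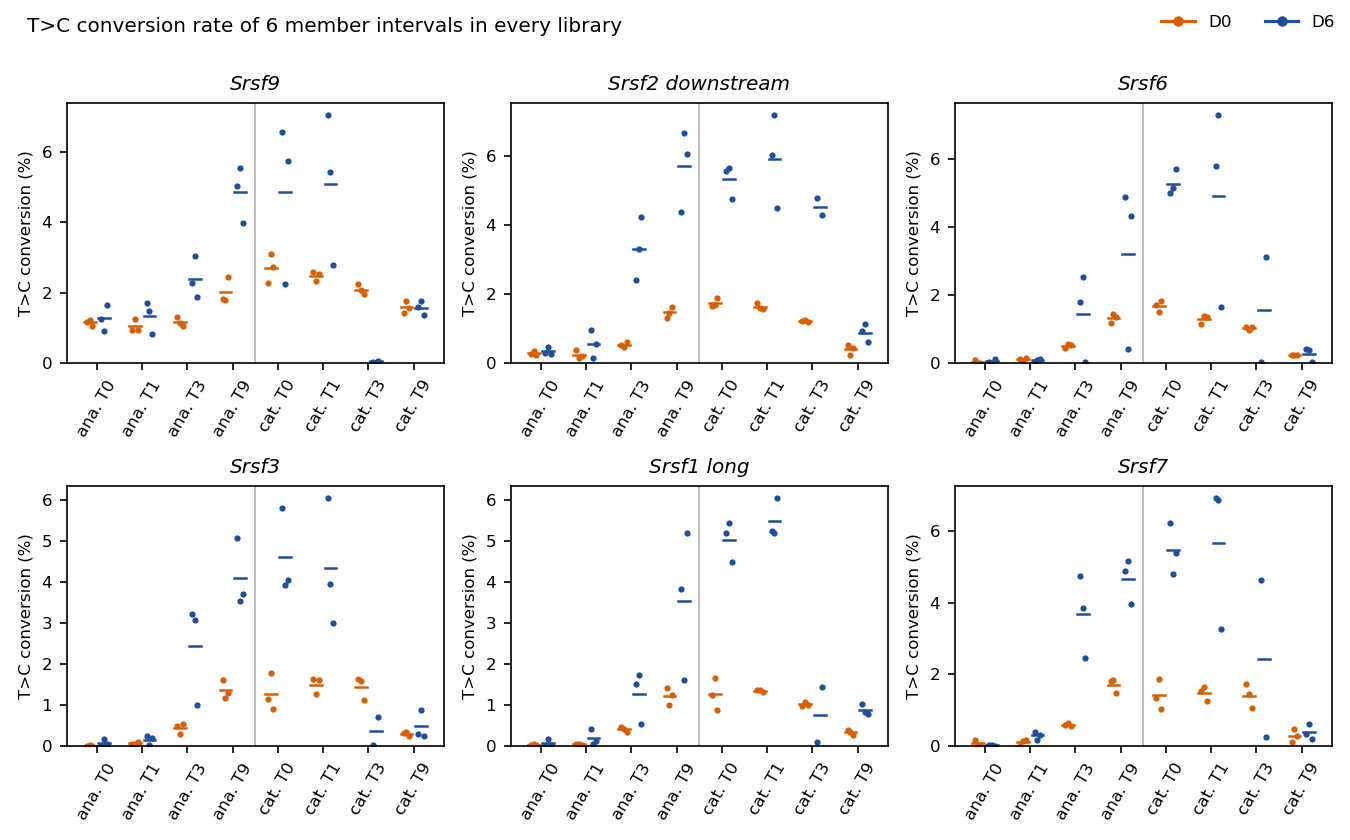
Conversion rate in percent of covered T positions for 6 member intervals in every library, by time point of the anabolic (ana.) and catabolic (cat.) assay, with D0 in orange, D6 in blue and a line at each group mean. Without 4sU (ana. T0) Srsf9 is at 0.902% to 1.65%, whereas the other 5 intervals are at 0.456% or below.

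To follow decay, the label of each member after 9 h of chase was compared with that at 0 h in the same state, where the dose is the same. Over all intervals together, 29.2% ± 1.16 of the rate was left at D0 and 19.1% ± 1.35 at D6 (SD, n = 3). With Srsf1 counted once, the loss was called for 7 of 11 members at D0, against 30.4% of 10003 intervals, and for 9 of 11 at D6, against 45.2% (edgeR on conversions with covered T positions as offset). With a minimum of 3000 covered T positions a larger share was called, 2854 of 6932 intervals at D0 and 4074 at D6. The members had means of 5731 to 105912 covered T positions, and the shares were not matched to their depth. The median log2 change of the members was -2.13 at D0 and -3.09 at D6, against -2.38 and -3.03 over all intervals. The SR transcripts thus had a median loss close to that of all intervals in both states.

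Srsf2 gave the smallest p of the members. Of its label at 0 h, 30.8%, 12.8% and 24.97% was left at D0, and 17.2%, 21.0% and 11.5% at D6. The log2 changes were -2.13 (SE 0.29, adjusted p 3.96e-06 in edgeR) and -2.59 (SE 0.30, adjusted p 9.68e-08 in edgeR). With the rate without 4sU subtracted, 7.56% ± 10.99 and 10.98% ± 5.10 were left, and 1 of the 3 values at D0 was then below 0.

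Srsf6 had the tightest values at D0, where 14.6%, 14.7% and 13.9% of its label was left. At D6 7.49%, 6.92% and 0.763% was left. The log2 changes were -2.79 (SE 0.79, adjusted p 0.00995 in edgeR) and -4.31 (SE 0.85, adjusted p 0.000280 in edgeR). With the rate without 4sU subtracted, limma did not call the loss at D0 (-2.74, adjusted p 0.0739). The groups did not overlap, but the difference between the states of -1.51 (SE 1.05) was not called.

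Srsf1 kept 30.3%, 27.6% and 21.2% of its label at D0 and 20.3%, 16.6% and 15.5% at D6, and its loss was called in both states (log2 changes -1.92 and -2.52). At D0 that call was lost in limma on subtracted rates (-1.81, adjusted p 0.0686). Srsf3 kept 23.2% ± 3.21 at D0 and 10.4% ± 7.51 at D6, and Srsf7 kept 20.3% ± 12.3 and 7.12% ± 3.95. Srsf4 kept 9.87% ± 4.64 and 5.43% ± 7.52, and Srsf11 kept 11.8% ± 4.99 and 2.44% ± 2.90, all called in both states. For Srsf11 the values with the rate without 4sU subtracted were 2.20% ± 5.54 and 0.967% ± 2.94. At D0 the calls of Srsf3, Srsf4 and Srsf7 depended on single libraries. Srsf3 was not called without library 26 or 36 (adjusted p 0.0540 and 0.0526 in edgeR) or in limma on subtracted rates (0.0852), and Srsf7 not without library 34 (0.0599). Srsf4 was not called without library 27, 34, 35 or 36, with adjusted p-values from 0.0666 to 0.104 in edgeR.

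Srsf9 kept the most label of the members without subtraction at D0, 52.7%, 65.3% and 57.7%, and 32.8%, 36.2% and 27.8% at D6. Its loss at D0 was not called (log2 change -0.77, SE 0.32, adjusted p 0.0624 in edgeR), except when the 3 libraries with the fewest intervals detected were left out (adjusted p 0.0377 in edgeR). At D6 it was called (-1.63, SE 0.33, adjusted p 0.000344 in edgeR). With its rate without 4sU subtracted, 17.5%, 39.6% and 26.3% was left at D0 and 9.01%, 13.7% and 2.28% at D6. Subtraction thus brought Srsf9 from 58.6% to 27.8% ± 11.1 at D0, where Srsf1 was at 24.4% ± 4.78 with subtraction. At the third time point of the chase at D6, Srsf9 was at 0.0397% and 0.0530%, below its own rate without 4sU, on 2516 and 7541 covered T positions. The first of these is library 14. Subtraction takes the rate without 4sU as the same in every library of a state, which these libraries do not bear out for Srsf9.

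Srsf5 and Srsf10 gave the least certain values. Srsf5 kept 28.1%, 51.1% and 28.03% at D0, not called, and 4.01%, 3.48% and 28.2% at D6, called with an adjusted p of 0.0396 in edgeR. Leaving out library 7, 8, 9, 16 or 17 each ended that call (adjusted p 0.0547 to 0.107 in edgeR). The loss at the downstream interval of Srsf10 missed the threshold at D0 (-3.18, SE 1.29, adjusted p 0.0587 in edgeR) and was called without library 27 (0.0388) or 36 (0.0495), without libraries 14, 40 and 53 (0.0478), with a minimum of 3000 covered T positions (0.0498) and in DESeq2 (0.0145). Neither interval of Srsf10 was called at D6 in edgeR, where the downstream one kept 42.9%, 0% and 73.5%. Limma on subtracted rates called the upstream one there (-4.93, adjusted p 0.0289).

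**Figure D4:**
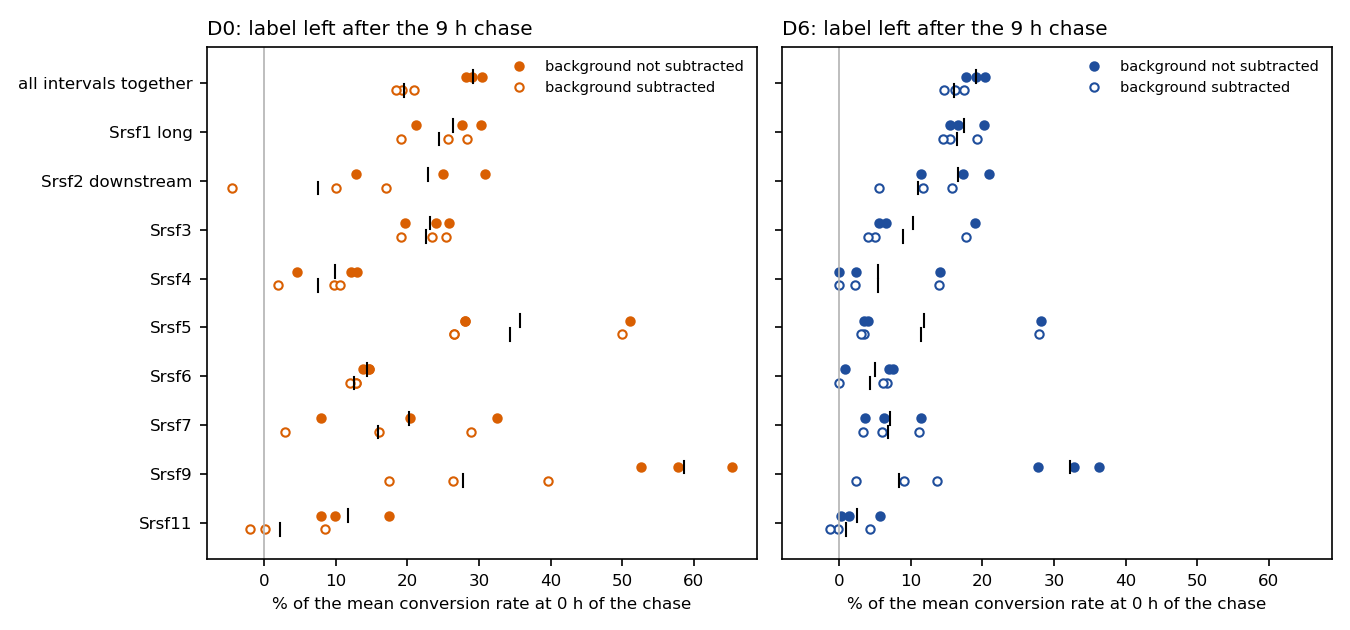
Label left after 9 h of chase, in percent of the mean rate at 0 h of the same state, for 9 member intervals and all intervals together, by library (points, with a bar at the mean), as measured (filled) and with the rate without 4sU subtracted (open). The Srsf10 intervals are not drawn. Srsf9 falls from a mean of 58.6% to 27.8% at D0 with subtraction, whereas Srsf6 moves from 14.4% to 12.6%.

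Whether the members lost label to a different extent at D6 was tested as the interaction of state and time. None of 11 was called in edgeR, against 0.39% of all intervals. At an unadjusted p under 0.05 edgeR gave 0 members and 1327 of 10003 intervals, and DESeq2 called 0 members and 350 intervals. The standard errors of the members were 0.40 to 2.63 log2 units, and this test called none of the changes simulated at this depth, so that a missing call does not show that the states were alike. The median over the members was -0.86, against -0.70 over all intervals, and 10 of 11 estimates were below 0. The median over all intervals was -1.23 without library 16 and -0.44 without library 7. The estimate for Srsf11 was the lowest, -2.35 (SE 1.15, adjusted p 0.376 in edgeR). Those for Srsf9 and Srsf2 were -0.86 (interval -1.74 to 0.02) and -0.47 (interval -1.25 to 0.31), and limma on subtracted rates gave 0.30 for Srsf2, in the other direction. The 500 µM dose belongs to D6 alone, and its part in these values cannot be told apart from that of the state.

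Label after 9 h of uptake was set against that after 15 h in the same state. This is a ratio of labeled shares and not of the amount of RNA made. Over all intervals together the label had reached 87.5% ± 3.33 at D0 and 77.8% ± 12.7 at D6. Srsf2 had reached 84.7% ± 8.99 and 107% ± 22.4, Srsf6 79.3% ± 8.08 and 60.7% ± 46.2 (92.6%, 7.74% and 81.7% at D6), and Srsf7 121% ± 14.02 and 85.3% ± 11.5. Srsf9 had reached 74.7% ± 13.4 at D0 and 99.9% ± 16.3 at D6. With its rate without 4sU subtracted, these were 55.8% ± 23.4 (43.01%, 41.6% and 82.8%) and 99.8% ± 22.1. In D6 library 53 the values of Srsf4, Srsf5, Srsf6 and both Srsf10 intervals were between 0% and 7.74%, and all intervals together were at 64.3% there, against 89.4% and 79.7% in libraries 52 and 54. The difference between the states was called for 0 of 11 members, and for 0% of 10176 intervals, in edgeR. At an unadjusted p under 0.05 edgeR gave 0 members and 616 intervals, DESeq2 called 0 members and 51 intervals, and limma on subtracted rates called 167 intervals lower and 1 higher. The members' median in edgeR was -0.46, against -0.47 over all intervals. In limma on subtracted rates the median over all intervals was -1.52, and no median of the members was taken there. Without library 53 the median over all intervals was -0.29 and the estimate for Srsf6 was 0.14 in place of -0.38. Without library 52 the median over all intervals was -0.88.

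Half-lives were fitted to the chase with the hours of the methods, as an exponential decay, and kept where R squared was over 0.6. At D0 this held for 3 members, Srsf6 at 338 ± 47.1 min, Srsf2 at 456 ± 84.7 min and Srsf9 at 833 ± 111 min (SE of the fit), and at D6 for 4, Srsf4 at 176 ± 43.8 min, Srsf11 at 182 ± 17.8 min, Srsf3 at 244 ± 78.0 min and Srsf1 at 309 ± 95.5 min. No member was kept in both states with these hours. With the hours of the labels Srsf1, Srsf2, Srsf6, Srsf7 and Srsf11 were kept in both, and with 0 and 9 h only Srsf3, Srsf5 and Srsf9 as well. Without library 27, 5 members were kept at D0, Srsf1 and Srsf11 among them. At D6 only Srsf4 and Srsf11 were kept without library 7, 16 or 18, and 7 members without library 10 or 11. Over all intervals 1432 of 10003 were kept at D0, with a median of 285 min, and 1241 at D6, with a median of 237 min. The hours of the labels gave 75.5 min for Srsf4, 83.8 min for Srsf11, 119 min for Srsf3 and 168 min for Srsf1 at D6, and 214 min for Srsf6 at D0. The value for Srsf2 at D0 was 254 min with only 0 and 9 h and 145 min when its rate without 4sU was subtracted as well. That for Srsf9 at D0 fell to 414 ± 72.9 min with its rate without 4sU subtracted, and to 292 min when only 0 and 9 h were fitted as well.

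Genes that act with SR proteins were examined in lists of kinases, SR-related proteins, U1 and 3′ splice site factors, import and export factors, and nonsense-mediated decay factors. Of 40 genes 37 were tested at D6 against D0 without 4sU, and edgeR called 0 lower and 0 higher. At an unadjusted p under 0.05 edgeR gave 3 of the 37 genes, against 3421 of 16322 intervals, and DESeq2 called 1, against 2272 intervals. The 3 genes were named after their values were seen. Clk1, a nuclear SR kinase, had a log2 estimate of 2.89 (SE 1.26, adjusted p 0.165 in edgeR and 0.0463 in DESeq2), at 9.48, 0.398 and 5.97 CPM at D0 and 64.3, 46.1 and 7.91 CPM at D6. Sf1, which binds the branch point, had an estimate of -0.84 (SE 0.32, adjusted p 0.0981 in edgeR), and U2af2, which binds the polypyrimidine tract, of -0.64 (SE 0.29, adjusted p 0.181 in edgeR). The median log2 differences were 0.23 for 6 kinases, -0.23 for 11 SR-related proteins, -0.74 for 6 U1 and 3′ splice site factors, -0.40 for 4 import and export factors and -0.09 for 10 decay factors. The kinase Srpk3 and the SR gene Srsf12 had no read.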

How the data were processed

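For each 3′ UTR interval, the deposited counts of reads, of T>C conversions and of T positions covered were used. Per the file headers they come from SLAMdunk 0.3.3, run on QuantSeq 3′ reads mapped to mm10, with polymorphic positions called by its own tool. Rows of 1 interval were taken once, which left 30432 intervals, and 30442 of 30609 RefSeq names were paired with a symbol in a RefSeq gene table of GRCm38.p6, used for names only. Reads of all 47 libraries were fitted with edgeR 4.0.16 in R 4.3.3 (quasi-likelihood, TMM, filterByExpr, 16 groups). Conversions were fitted with the log of covered T positions plus 0.5 as offset, where the mean per library was 1000 such positions or more. P-values were adjusted by Benjamini-Hochberg over all intervals tested and called under 0.05. CPM are TMM-scaled, and half-lives are least squares fits with numpy 2.4.6. The tests were checked on simulated data, where edgeR missed most changes of 1 and 2 log2 units in reads and called none in the label left between states, so that a missing call is no evidence of equality. Alternatives were DESeq2 1.42.0, limma 3.58.1 after subtraction of the rate without 4sU with a pseudocount of 0.0005, no filter, coverage minimums of 300 and 3000, fits to the groups compared only, other hours, and each library left out in turn. Leaving out the library with the fewest covered T positions per read from each of 3 groups (26, 38 and 56) or the 3 libraries with the fewest intervals detected, combining 0 and 9 h with subtraction, and leaving out libraries from the Srsf10 share were chosen after seeing the data. Named genes were all members and, from each list, the 2 smallest p in each direction among genes called by edgeR. No gene of the 5 pathway lists met this. Cell type markers were named as markers, and Clk1, Sf1 and U2af2 were named after their values were seen. The members and lists were chosen with earlier results of these data known. Columns of rates and of CPM computed by the authors were not used. Counting error is not given, since reads carry no molecular identifiers, and errors are between libraries. Figures were drawn with matplotlib 3.10.9.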

Additional observations from a re-analysis of the deposited data

How the results depend on the processing

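No paired analysis was possible because the library numbers in the labels are unique and pair no samples. The count of members called lower at D6 without 4sU, 2 as reported, was 1 (Srsf9) with no filter on low counts and 1 (Srsf9) with only the compared groups fitted, 0 without libraries 26, 38 and 56, and 0 to 2 with single libraries left out. Over all intervals the first 3 of these fits called 555 of 19020, 582 of 11627 and 273 of 16315 lower, against 540 of 16322. Fits with single libraries left out called 350 to 462 lower. After 15 h of 4sU the member count was 2 in place of 1 without libraries 14, 40 and 53, and DESeq2 called 1 member for 4sU against none at D6. Over all intervals these fits called 1209 of 17821 lower, against 681 of 16322, and 286 of 16322 in either direction, against 3. Label loss at D0 was called for 4 members in place of 7 by limma on subtracted rates, which lost Srsf1, Srsf3 and Srsf6. Over all intervals limma called 2398 of 10003 lower there, against 3036 in edgeR. Half-lives at D0 were kept for 8 members in place of 3 with 0 and 9 h only, 6 with the hours of the labels and 8 with 0 and 9 h and subtraction. At D6 these counts were 10, 7 and 10 in place of 4. Over all intervals the share kept rose as well, at D0 from 14.3% to 34.2%, 22.7% and 33.45%. At D6 it rose from 12.4% to 49.6%, 19.1% and 49.5%. The member counts ran from 2 to 7 over both states with single libraries left out. They were 5 at D0 without library 27, 2 at D6 without library 7, 16 or 18, and 7 at D6 without library 10 or 11. Kept half-lives moved with the hours and with subtraction, at the lowest to 145 min for Srsf2, 181 min for Srsf6 and 292 min for Srsf9 at D0, and to 168 min for Srsf1, 119 min for Srsf3, 75.5 min for Srsf4 and 80.7 min for Srsf11 at D6. Without 4sU, the estimate for Srsf11 reversed to 0.022 with no filter and to 0.0036 in DESeq2. After 15 h, that for Srsf1 reversed to 0.028 with no filter, 0.034 with only the compared groups and 0.057 in DESeq2. Without libraries 26, 38 and 56, the 4sU effect became -0.019 (D0) and -0.26 (D6) for Srsf10 downstream and -0.014 for Srsf5 at D6. The state difference in label left became 0.30 for Srsf2 with limma, and that in uptake 0.14 for Srsf6 without libraries 14, 40 and 53. With single libraries left out, the log2 estimates that changed sign, none of them for a called member, had these ranges. D6 against D0 without 4sU ran from -0.078 to 0.57 for Srsf1, -0.22 to 0.32 for Srsf4, -0.38 to 0.35 for Srsf5, -0.99 to 0.082 and -0.30 to 0.55 for Srsf10 upstream and downstream, -0.12 to 0.066 for Srsf11 and -5.95 to 0 for the upstream Srsf2 interval. With label, it ran from -0.31 to 0.14 for Srsf1, -0.59 to 0.29 for Srsf5 and -0.13 to 0.48 for Srsf10 downstream. The 4sU effect at D0 ran from -0.20 to 0.45 for Srsf1, -0.037 to 0.16 for Srsf6, -0.37 to 0.082 for Srsf7 and -0.19 to 0.39 for Srsf10 downstream, and at D6 from -0.14 to 0.72 for Srsf5 and -0.70 to 0.38 and -0.27 to 0.59 for Srsf10 upstream and downstream. Label loss at D0 ran from -2.62 to 0.59 for Srsf10 upstream, and the state difference in uptake from -0.82 to 0.14 for Srsf6 and -0.75 to 0.077 for Srsf11. The causes of these changes were not tested.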
